A study of Mus musculus with 4 samples.

Results

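Traf6, Irak1, Irak2, Relb, Notch1, Notch2, Smad4 and Prkce are 8 genes that the literature names as targets of the microRNA miR-146a, and they are described here in every annotated cell type of mouse spleen, in libraries from mice without and with miR-146a. They are 8 of the 31053 genes in the count matrices, and the list was taken from the literature. A microRNA binds messenger RNAs through its seed, the bases near its 5′ end, mostly at matching sites in the 3′ untranslated region (UTR), and lowers their stability or translation. miR-146a is itself switched on by NF-kB and acts as a brake on that pathway in immune cells, best known through TRAF6 and IRAK1, which carry signals from Toll-like and interleukin-1 receptors to NF-kB. The other 6 genes stand at neighbouring points: IRAK2 is a kinase-like relay of the same receptors, RELB is an NF-kB subunit, NOTCH1 and NOTCH2 are receptors for ligands on neighbouring cells, SMAD4 is the shared partner of the TGF-beta signalling SMADs, and PRKCE is a protein kinase C isoform.

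The 4 groups were C57BL/6 mice, with 1 library each: a whole-body miR-146a knockout aged 15 months, a double knockout of the same age that lacked miR-146a in all cells and miR-155 in T cells, aged wild type (WT) at 15 months, and young WT. The WT controls were not fully unmodified, as they carried floxed miR-155 alleles (miR155 fl/fl), and the sources used here do not say whether the miR-146a knockout carried them too. Neither the Cre driver nor the age of the young mice is given. Spleens of 3 to 6 aged mice were pooled per group before live CD45+ cells of low forward and side scatter, a lymphocyte gate that leaves out many myeloid cells, were sorted for 10x Genomics single-cell RNA sequencing. Both 3′ and 5′ chemistry are named in the labels, and which was used is not settled here. Mature miR-146a is not measured by such libraries, and no host transcript of it is among the measured genes, so its deletion could not be checked here.

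The seed and its sites are shown first because they are the feature the 8 genes are said to share. The mature mouse sequences are from RefSeq (GRCm38.p6), written 5′ to 3′ with the seed, bases 2 to 8, in capitals. miR-146b-5p, which neither knockout removes, is the only other of the 1738 mature miRNAs in that table with the same seed, and it has the same base as miR-146a-5p at 20 of 22 positions.
miR-146a-5p: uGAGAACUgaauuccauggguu
miR-146b-5p: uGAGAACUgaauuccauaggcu
The sites below were read from GENCODE M21 transcripts of GRCm38 (mm10) on the strand of each gene, and the capitals mark the whole match, which is the bases that pair with the seed followed by the A opposite the first base of the miRNA. In the 7mer-A1 the pairing leaves out the last base of the seed. The first 3 lie in the 3′ UTRs of Traf6 (chr2:101697940-101697969, plus strand) and Irak1 (chrX:74015390-74015419 and chrX:74015374-74015403, minus strand), the pair of genes through which miR-146a is best known. The next 3 lie in those of Irak2 (chr6:113694247-113694276, plus strand), Notch1 (chr2:26459260-26459289, minus strand) and Notch2 (chr3:98148656-98148685, plus strand), of which Notch2 has the shorter 7mer-A1 match.
Traf6, first 8mer: agttaccgctctggtgttgAGTTCTCAttt
Irak1, first 8mer: cctcagactcagaggtcaaAGTTCTCAtgc
Irak1, second 8mer: caaagttctcatgcttggaAGTTCTCAtag
Irak2, 8mer: tacagccggtgtctccgcaAGTTCTCAagt
Notch1, 8mer: tgttccaagaaaataaactAGTTCTCAgag
Notch2, 7mer-A1: gactggtgcacacacagtagGTTCTCAgtg

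The 8 genes differed in how well their 3′ UTRs match the seed. All annotated 3′ UTRs were searched on the sense strand for the 8mer AGTTCTCA, the 7mer-m8 AGTTCTC, the 7mer-A1 GTTCTCA and the 6mer GTTCTC, each match counted once as its longest kind. Traf6 had 4 8mers, 460, 524, 1336 and 3860 bases after the stop codon in a UTR of 4170 bases. Irak1 had 2 8mers within its first 100 bases, at 40 and 56, and a 7mer-A1 at 147. Irak2 had 1 of each kind, and Notch1 and Smad4 had a single 8mer at 261 and 356 bases. Notch2 held only a 7mer-A1, at 1232 bases. Relb and Prkce held nothing longer than a 6mer, 1 in the 336-base UTR of Relb and 2 in the 3232-base UTR of Prkce. An 8mer was present in 5 of the 8 genes, against 4.39% of 20971 annotated genes with a 3′ UTR. An 8mer or either 7mer was present in 6 of 8 against 19.2%, and any match in 8 of 8 against 31%. Long UTRs hold more matches: among genes with a UTR about as long as that of Traf6, 51.3% held a 7mer or better, against 4.88% among genes with one about as long as that of Relb. Since such matches were often used to propose these genes as targets, the counts describe the list and support nothing about its members.

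**Figure D1:**
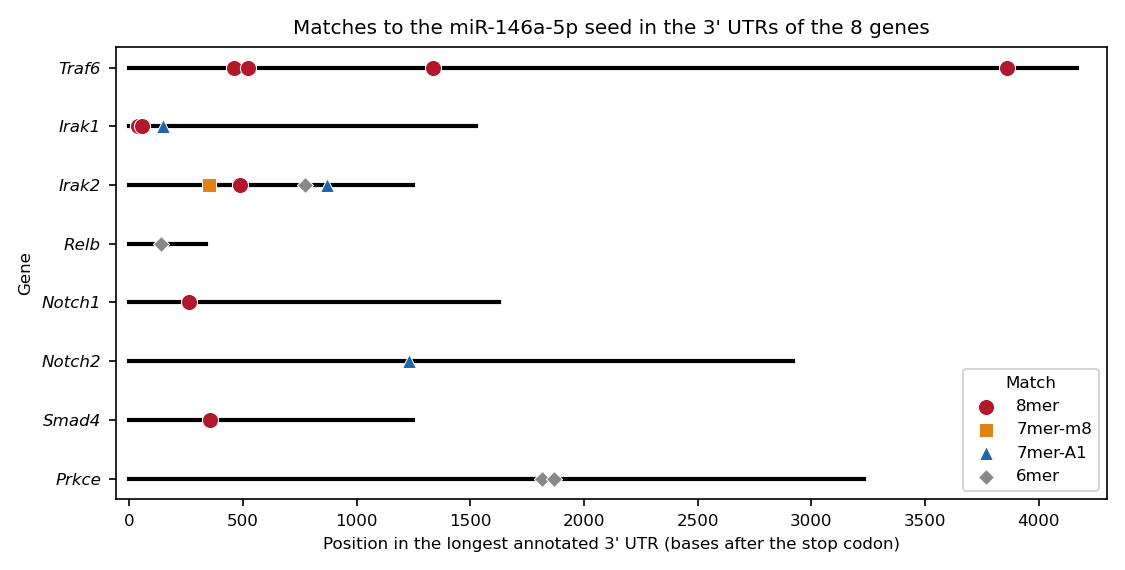
Position of each match to the miR-146a-5p seed in the longest annotated 3′ UTR of the 8 genes, in bases after the stop codon, with the line drawn to the length of the UTR. Circles are 8mers, squares 7mer-m8, triangles 7mer-A1 and diamonds 6mers; Traf6 carries 4 8mers and Relb and Prkce carry only 6mers.

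The libraries held 5702 barcodes in the miR-146a knockout, 7297 in the double knockout, 6952 in aged WT and 7626 in young WT, with 19995131, 22399381, 17561683 and 19072791 UMIs (unique molecular identifiers, 1 per captured RNA molecule). The authors' cell type names, 16 in all, covered 24143 of the 27577 barcodes. Between 176 and 231 barcodes of each library also occurred in another library. Levels are given as CPM, the UMIs of a gene scaled to 1000000 UMIs of that cell type or class in that library, so more cells of a type do not raise them. The classes were T cells (1514, 2083, 1755 and 2904 cells in the miR-146a knockout, double knockout, aged WT and young WT), B cells (2473, 3336, 3719 and 3316) and myeloid cells (715, 919, 191 and 223). Markers separated T from B cells: Cd3e, Cd3d and Trac together held 2411 to 3032 CPM in T cells and 37.9 to 76.6 CPM in B cells. Some names were not borne out by markers. Centroblasts are the dividing cells of the germinal centre, yet cells named GC Centroblast held only 24.0 to 46.7 CPM of the cycling genes Mki67, Top2a and Stmn1, while those named GC Centrocyte held 1815 to 2501 CPM. Cells named Nai Cd4 held 1088 CPM of the memory genes Cd44, S100a4 and Itgb1 in the miR-146a knockout, 565 CPM in the double knockout, 467 CPM in aged WT and 64.7 CPM in young WT, so the name covers different cells in the 4 libraries. RNA of other cells differed too: the granulocyte genes S100a8, S100a9 and Retnlg summed in T cells to 665 CPM in the miR-146a knockout and 753 CPM in the double knockout, against 14.2 CPM in aged WT and 10.0 CPM in young WT, and its part in the results was not tested. Each group is a single library, so no replicates exist and no test between groups was run. Every interval is a 95% interval that covers counting error only, not the spread between mice, pools or preparations.

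Levels across cell types come first, over 15 named types with at least 40 cells in a library. T/B dbl cells, a mixed class by name, were left out of this order. The 8 genes were scarce, with between 567 UMIs (Traf6) and 3920 UMIs (Relb) over all annotated cells, so values in small types are coarse.

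**Figure D2:**
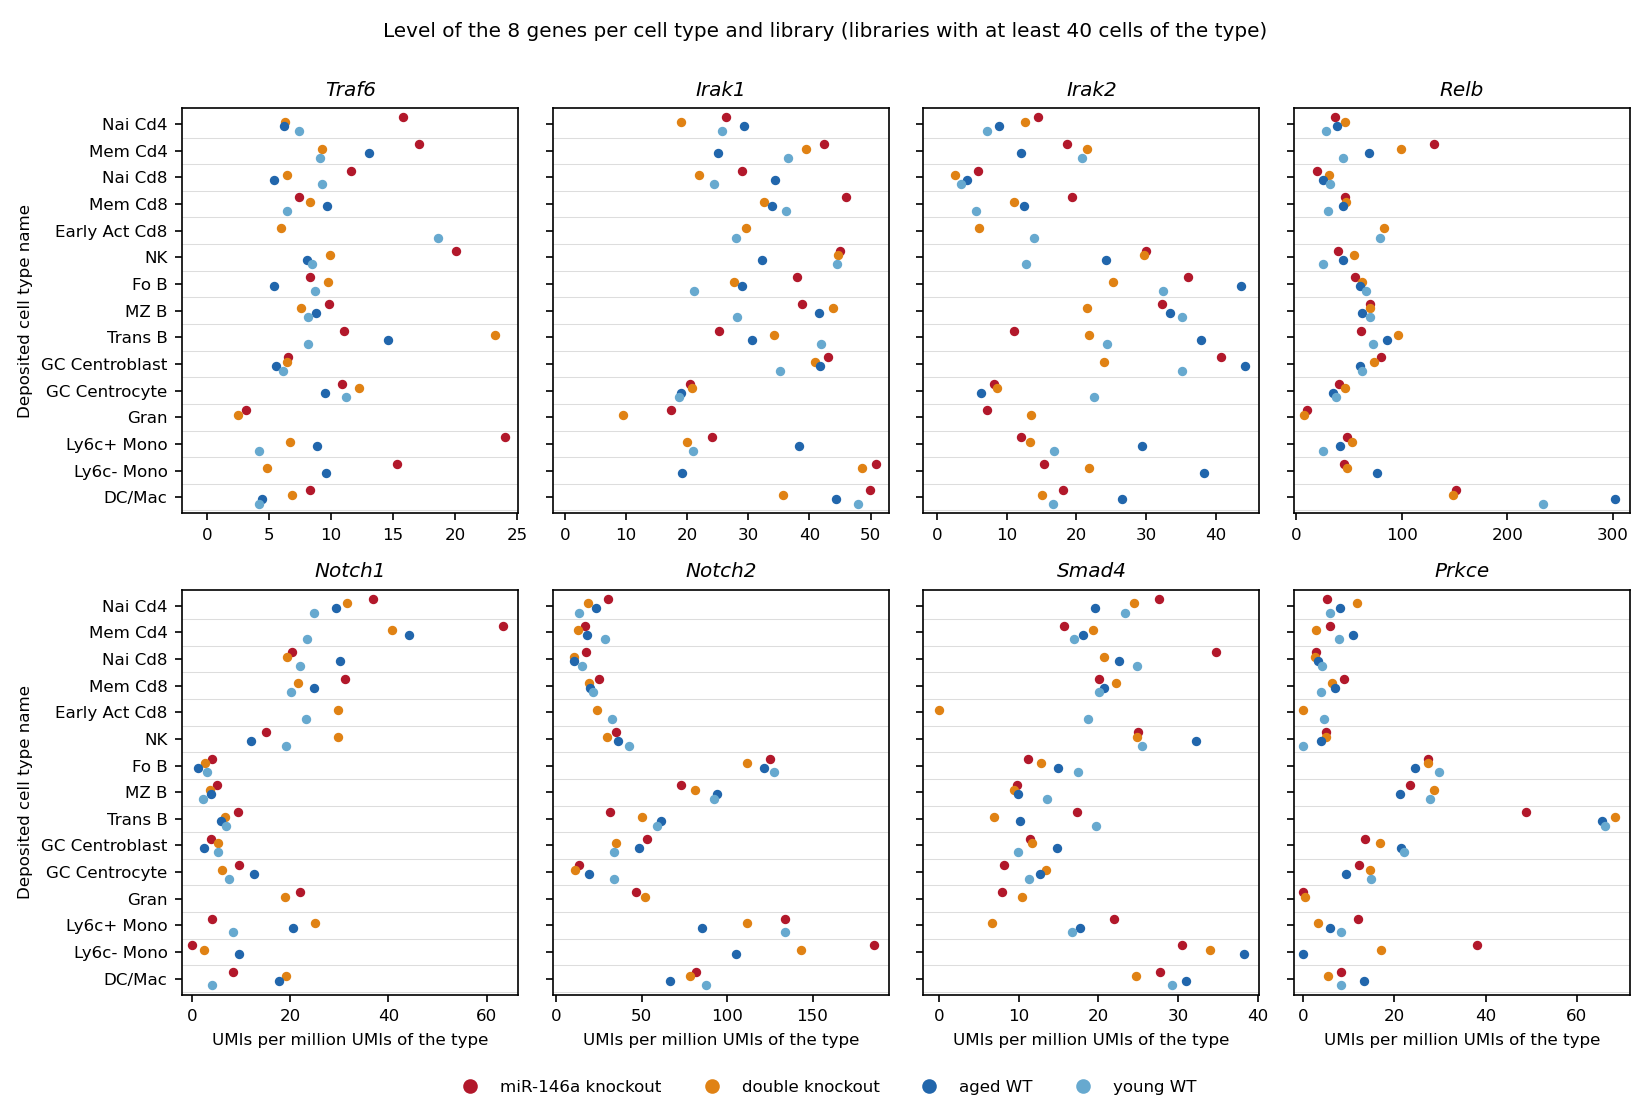
Level of each of the 8 genes (x axis, CPM of the type) in each deposited cell type (y axis), 1 point per library with at least 40 cells of the type. Relb stands highest in DC/Mac, Notch1 in T cell types, Notch2 in monocytes and Fo B cells, and Prkce in Trans B cells.

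Among the receptor-proximal genes, Traf6 (ENSMUSG00000027164, chromosome 2, 101678429 to 101701669), the ubiquitin ligase that passes the signal on to NF-kB and MAP kinases, showed little order between types. Its mean over libraries ran between 14.2 CPM in Trans B cells and 2.82 CPM in Gran cells, and the ranges of neighbouring types overlapped throughout, apart from the last step from DC/Mac to Gran. Irak1 (ENSMUSG00000031392, chromosome X, 74013914 to 74023918), the kinase recruited to MyD88-coupled receptors, was as even, with means between 44.5 CPM in DC/Mac and 13.4 CPM in Gran cells. Its ranges overlapped down to GC Centrocyte cells (18.7 to 20.8 CPM), which lay above Gran cells (9.45 to 17.3 CPM). Irak2 (ENSMUSG00000060477, chromosome 6, 113638467 to 113695026) had its highest means in B cell types. It averaged 36.1 CPM in GC Centroblast, 34.4 CPM in Fo B and 30.6 CPM in MZ B cells, and 4.01 CPM in Nai Cd8 cells, where its 2.59 to 5.80 CPM lay below the next type up, Early Act Cd8 (5.94 to 14.0 CPM). GC Centrocyte cells (6.34 to 22.5 CPM) overlapped Nai Cd4 cells (7.09 to 14.5 CPM). An antisense gene, Gm43964, overlaps Irak2, and the sources used here do not state whether counting used strand, so its reads cannot be told apart from those of Irak2.

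Relb (ENSMUSG00000002983, chromosome 7, 19606217 to 19629438), the subunit of the alternative NF-kB pathway that dendritic cells need to mature, was highest in DC/Mac cells. It held 151 CPM there in the miR-146a knockout, 148 CPM in the double knockout, 302 CPM in aged WT and 234 CPM in young WT. All 4 values lay above the highest value in the next type, Mem Cd4 cells (44.2 to 131 CPM). Naive T cells were low, at 20.3 to 32.0 CPM in Nai Cd8 and 28.1 to 46.5 CPM in Nai Cd4 cells, and Gran cells lowest at 7.96 and 10.2 CPM in the 2 libraries with enough of them. The genes whose levels followed Relb most closely over 45 combinations of type and library were Zmiz2 (r = 0.869), Nfkb2 (r = 0.853), which encodes the NF-kB partner of RELB, and Tgs1 (r = 0.840).

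The Notch receptors were high in different cells. Notch1 (ENSMUSG00000026923, chromosome 2, 26457903 to 26516663), which drives T lineage commitment in the thymus, held the first 5 places in T cell types, with a mean of 42.9 CPM in Mem Cd4, 30.6 CPM in Nai Cd4 and 22.9 CPM in Nai Cd8 cells. In mature B cells it averaged 2.78 CPM (Fo B) and 3.73 CPM (MZ B). Notch2 (ENSMUSG00000027878, chromosome 3, 98013527 to 98150361), which marginal zone B cells need to form, ran the other way. Its mean was 145 CPM in Ly6c- Mono, 121 CPM in Fo B, 116 CPM in Ly6c+ Mono and 85.2 CPM in MZ B cells, and 13.4 to 21.6 CPM in the naive and memory T cell types. Every Fo B value (112 to 127 CPM) lay above every MZ B value (73.0 to 94.2 CPM). Over the same 45 combinations the levels of Notch1 and Notch2 correlated at r = -0.71, which describes shared cell types and not separate samples. Among the genes most like Notch2 were Rnf13 (r = 0.881) and Cyp4f18 (r = 0.821).

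Smad4 (ENSMUSG00000024515, chromosome 18, 73639009 to 73703780) is the shared SMAD through which TGF-beta signals reach the nucleus. Its mean was 34.3 CPM in Ly6c- Mono, 28.2 CPM in DC/Mac, 25.7 CPM in Nai Cd8, 17.5 CPM in Mem Cd4 10.7 CPM in MZ B and 9.16 CPM in Gran cells. Mem Cd8 cells (20.1 to 22.2 CPM) lay above Mem Cd4 cells (15.6 to 19.3 CPM) in all 4 libraries. Prkce (ENSMUSG00000045038, chromosome 17, 86167785 to 86657919) was higher in B than in T cell types, and highest in Trans B cells, recent arrivals from the bone marrow. Those held 48.9 CPM in the miR-146a knockout, 68.3 CPM in the double knockout, 65.5 CPM in aged WT and 66.2 CPM in young WT, all above the Fo B range of 24.5 to 29.9 CPM. In T cell types its mean stayed between 2.33 and 7.75 CPM. Genes on the opposite strand, Gm10309 and 2010106C02Rik, overlap Prkce. Prkce was followed most closely by Map3k1 (r = 0.902), a MAP kinase cascade kinase, Pou2f2 (r = 0.852), which encodes the B cell factor OCT-2, and Hdac10 (r = 0.851). For Irak1, Irak2 and Smad4 the closest genes were Rapgef1 (r = 0.760), Rnf216 (r = 0.802) and Map4k4 (r = 0.789), and 6101 genes were searched for each. Next came Cyb5r3 and Rnf220 for Irak1, the B cell surface genes Cd38 and Ccr6 for Irak2, and Kpna4 and Apbb1ip for Smad4. Traf6 and Notch1 had under 1000 UMIs and were not searched.

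Loss of miR-146a was first read in T cells, where Relb and Irak2 were at least 1.5-fold higher in the miR-146a knockout, Irak1 and Notch1 were higher by less, and the intervals of the other 4 genes included 1. Relb held 72.7 CPM in the miR-146a knockout and 60.2 CPM in the double knockout, against 44.9 CPM in aged WT and 32.6 CPM in young WT. Both knockout libraries lay above both WT libraries. The ratio to aged WT was 1.62 (1.35 to 1.95) in the miR-146a knockout, from 287 against 205 UMIs, and 1.34 (1.12 to 1.61) in the double knockout. Irak2 stood at 16.7, 12.9, 10.3 and 7.26 CPM in the miR-146a knockout, double knockout, aged WT and young WT, the same order of libraries as Relb. Its ratio to aged WT was 1.62 (1.10 to 2.41) in the miR-146a knockout, and the interval of 0.846 to 1.86 in the double knockout included 1. These 2 of 8 genes were at least 1.5-fold higher in the miR-146a knockout, against a background of 10.2% of 10026 genes measured with at least 20 UMIs over both libraries, and none of the 8 was 1.5-fold lower, against 5.66%. The median log2 ratio of the 8 genes was 0.40, beside 0.06 for all genes.

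Notch1 followed with 43.6 CPM in T cells of the miR-146a knockout and 29.3 CPM in those of the double knockout, against 32.0 CPM in aged WT and 23.0 CPM in young WT. It was 1.36-fold (1.09 to 1.71) above aged WT in the miR-146a knockout alone, as the double knockout stood at 0.917-fold (0.724 to 1.16). Irak1 had the same shape, with 39.8, 29.3, 30.9 and 28.0 CPM in the miR-146a knockout, double knockout, aged WT and young WT. Its ratio to aged WT was 1.29 (1.02 to 1.63) for the miR-146a knockout and 0.949 (0.748 to 1.20) for the double knockout. Traf6 held 12.9 CPM in the miR-146a knockout and 7.73 CPM in the double knockout, against 8.77 CPM in aged WT and 8.26 CPM in young WT. The miR-146a knockout was the high library, but with 51 against 40 UMIs its ratio of 1.47 had an interval of 0.955 to 2.29. Traf6, the gene with the most 8mers, thus had a ratio whose interval included 1.

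Notch2 was at 22.5, 16.2, 18.2 and 17.3 CPM in T cells of the miR-146a knockout, double knockout, aged WT and young WT, a ratio to aged WT of 1.24 (0.909 to 1.69) in the miR-146a knockout. Smad4, which also carries an 8mer, stayed within 20.2 to 22.5 CPM in the 4 libraries, at 1.04-fold (0.766 to 1.42) of aged WT for the miR-146a knockout and 1.04-fold (0.780 to 1.39) for the double knockout. Prkce was at 6.33, 5.94, 7.23 and 5.26 CPM, with ratios of 0.876 (0.499 to 1.52) and 0.822 (0.484 to 1.39) in the miR-146a knockout and the double knockout. In the double knockout no gene of the 8 was 1.5-fold above or below aged WT, where 5.66% and 4.62% of all genes were, and the median log2 ratio was -0.10 beside 0.02 for all genes. Set beside the seed matches, the ratios in T cells of the miR-146a knockout for the genes with an 8mer were 1.62 (Irak2), 1.47 (Traf6), 1.36 (Notch1), 1.29 (Irak1) and 1.04 (Smad4). Notch2, with a 7mer-A1, was at 1.24, and the genes with only 6mers were at 1.62 (Relb) and 0.876 (Prkce).

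**Figure D3:**
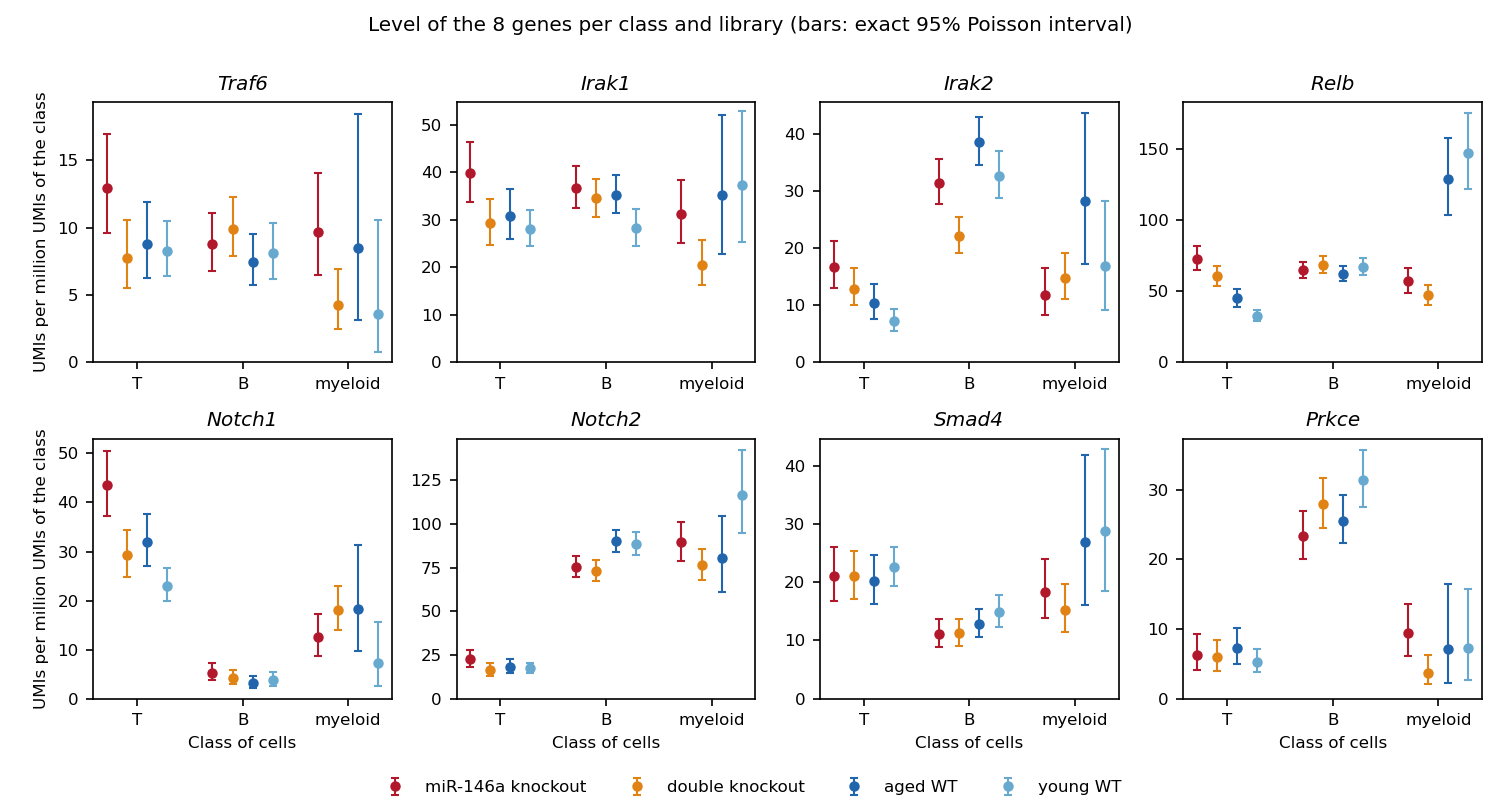
Level of the 8 genes (y axis, CPM of the class) in T, B and myeloid cells, in the miR-146a knockout, double knockout, aged WT and young WT libraries from left to right. Points are single libraries and bars exact 95% Poisson intervals. In T cells Relb and Irak2 are lower at each step from the miR-146a knockout to young WT, while Relb in myeloid cells lies at 56.9 and 46.9 in the knockout libraries against 129 and 147 in the WT libraries.

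The T cell difference in Relb was uneven over cell types. Mem Cd4 cells held 131 CPM (112 to 152) in the miR-146a knockout and 99.5 CPM (83.7 to 118) in the double knockout, against 69.2 CPM (53.9 to 87.6) in aged WT and 44.2 CPM (30.6 to 61.8) in young WT. The ratio to aged WT there was 1.89 (1.42 to 2.54) for the miR-146a knockout and 1.44 (1.07 to 1.95) for the double knockout. In Nai Cd4 cells the same ratio was 0.942 (0.565 to 1.55), and in Mem Cd8 cells 1.03 (0.713 to 1.48), for the miR-146a knockout. Mem Cd4 cells also made up more of the T cells in that library, 616 of 1514 against 512 of 1755 in aged WT. Weighting the T cell types as they occur in aged WT gave a log2 ratio of 0.35 for Relb in place of 0.69, and 0.63 for Irak2 in place of 0.70. Irak2, unlike Relb, had like ratios in 3 T cell types, 1.63 in Nai Cd4, 1.55 in Mem Cd4 and 1.55 in Mem Cd8 cells, but from 26 UMIs or fewer in each library, and all these intervals included 1. Irak1 too was higher in Mem Cd4 cells, at 42.4 CPM in the miR-146a knockout and 39.4 CPM in the double knockout, against 25.1 CPM in aged WT and 36.4 CPM in young WT. Its ratio of 1.69 (1.04 to 2.82) there rests on an aged WT value below that of young WT. Notch1 in Mem Cd4 cells was 63.3, 40.8, 44.2 and 23.4 CPM in the miR-146a knockout, double knockout, aged WT and young WT, a ratio to aged WT of 1.43 (0.984 to 2.11) in the miR-146a knockout.

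Mem Cd4, the T cell type with the highest mean Relb level, was the only single type for which shares over all genes were counted. Its counts do not stand for the other T cell types. Of the 7 genes measured in Mem Cd4 cells, 3 were at least 1.5-fold higher in the miR-146a knockout (Irak1, Irak2 and Relb, of which the interval of Irak2 included 1), against 7.89% of all genes, and none was lower, against 7.81%. In the double knockout 2 were higher (Irak1 and Irak2, both with intervals that included 1), against 7.7% of all genes, and none was lower, against 7.58%. Both comparisons share the aged WT library. Irak2 in Mem Cd4 cells was at 18.6, 21.5, 12.0 and 20.8 CPM in the miR-146a knockout, double knockout, aged WT and young WT. Its ratios to aged WT, like those of Irak1, thus rest on an aged WT value below that of young WT. Memory markers in Mem Cd4 cells were alike in the aged libraries, with 898 CPM in the miR-146a knockout, 951 CPM in the double knockout and 937 CPM in aged WT, against 415 CPM in young WT. Markers of dendritic cells and macrophages, the cells with the highest Relb, summed in Mem Cd4 cells to 16.4 CPM in the miR-146a knockout, 4.30 CPM in the double knockout, 4.01 CPM in aged WT and 2.60 CPM in young WT, from 3, 3, 2 and 2 of 6 genes, with Siglech and Xcr1 at 0 in all 4. In DC/Mac cells of these libraries the same 6 genes summed to 3099, 1200, 448 and 1060 CPM. Their part in the Relb values was not tested.

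**Figure D4:**
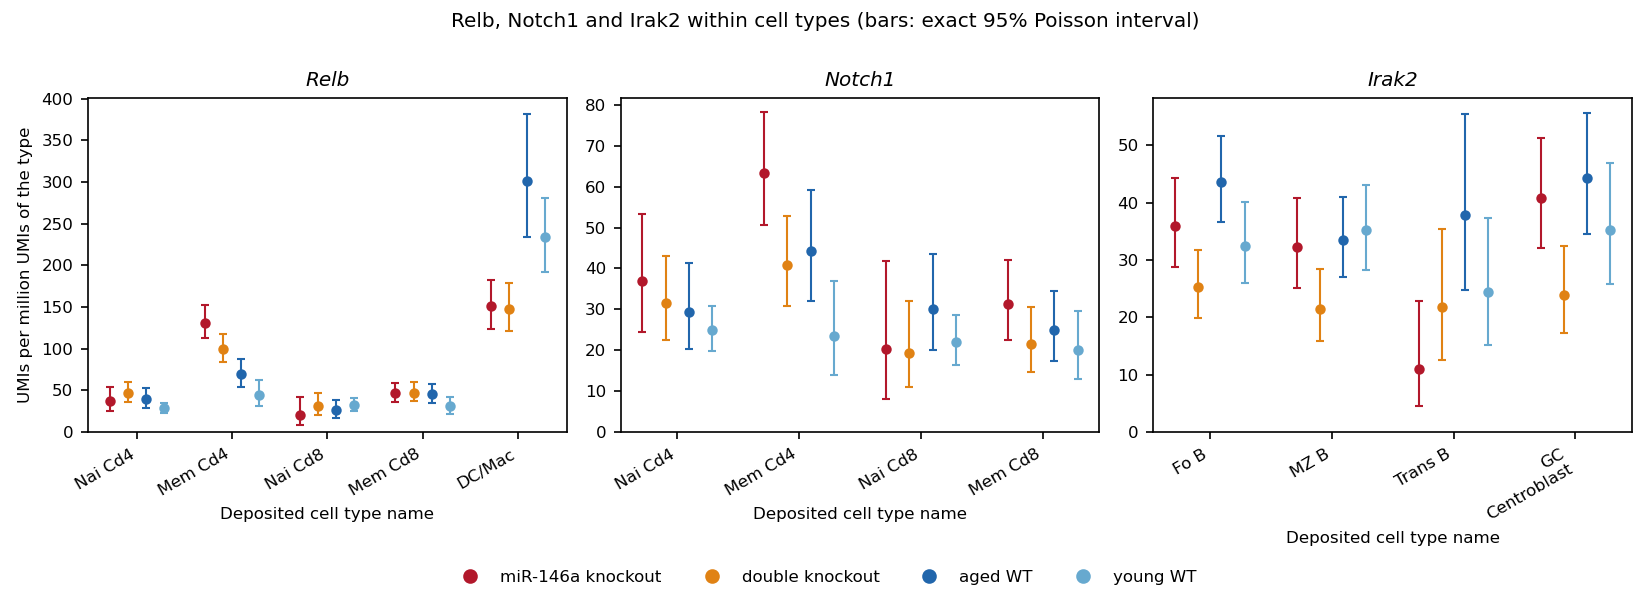
Levels of Relb and Notch1 in T cell types (Relb also in DC/Mac) and of Irak2 in B cell types, in CPM of the type, with exact 95% Poisson intervals, for the 4 libraries from left to right. In Mem Cd4 cells Relb is at 131 and 99.5 in the knockout libraries, against 69.2 and 44.2 in the WT libraries, and in DC/Mac both knockout libraries lie below both WT libraries.

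B cells gave a different picture: Irak2 and Notch2 were lower in both knockout libraries, and Relb and Irak1 were near 1. Irak2 held 31.4 CPM in the miR-146a knockout and 22.1 CPM in the double knockout, against 38.6 CPM in aged WT and 32.6 CPM in young WT. Both knockout values lay below both WT values. The ratio to aged WT was 0.815 (0.688 to 0.964) in the miR-146a knockout, from 244 against 332 UMIs, and 0.573 (0.476 to 0.687) in the double knockout. Within types the double knockout was at 0.580 (0.432 to 0.775) of aged WT in Fo B, 0.641 (0.443 to 0.916) in MZ B and 0.541 (0.359 to 0.805) in GC Centroblast cells. The miR-146a knockout was lower beyond counting error only in Trans B cells, with 7 against 26 UMIs (ratio 0.292, 0.107 to 0.690), among the 5 B cell types. Trans B cells of the knockout libraries also held more of the transitional markers Cd93 and Vpreb3, 3537 CPM in the miR-146a knockout and 2844 CPM in the double knockout, against 1047 CPM in aged WT and 1242 CPM in young WT, and the part of this in the Irak2 value was not tested.

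Notch2 was at 75.5 CPM in B cells of the miR-146a knockout and 73.1 CPM in those of the double knockout, against 90.2 CPM in aged WT and 88.7 CPM in young WT. The knockout libraries again lay below the WT libraries, at 0.838-fold (0.751 to 0.934) and 0.811-fold (0.729 to 0.903) of aged WT for the miR-146a knockout and the double knockout. In Fo B cells, where it is high, Notch2 was at 125, 112, 122 and 127 CPM in the miR-146a knockout, double knockout, aged WT and young WT, without such a gap. MZ B cells held 73.0 CPM in the miR-146a knockout and 81.4 CPM in the double knockout, against 94.2 CPM in aged WT and 92.3 CPM in young WT. Fo B cells were 1015 of 2473 B cells in the miR-146a knockout and 1576 of 3336 in the double knockout, against 1775 of 3719 in aged WT and 1483 of 3316 in young WT. Notch1, scarce in B cells, stood at 5.28, 4.14, 3.14 and 3.78 CPM in the miR-146a knockout, double knockout, aged WT and young WT, with a ratio of 1.68 (1.01 to 2.85) to aged WT in the miR-146a knockout from 41 against 27 UMIs. T cell markers in B cells summed to 42.4 CPM in that library, against 58.8 CPM in aged WT. Granulocyte markers in B cells summed to 582 CPM in that library, against 14.8 CPM in aged WT. The part of either in the Notch1 value was not tested.

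Relb in B cells held 64.4, 68.4, 62.2 and 66.9 CPM in the miR-146a knockout, double knockout, aged WT and young WT. The libraries overlapped, and the ratio to aged WT was 1.04 (0.916 to 1.17) for the miR-146a knockout and 1.10 (0.977 to 1.24) for the double knockout, from 500 or more UMIs in each library. Irak1 was at 36.7, 34.5, 35.3 and 28.2 CPM in the same order, 1.04-fold (0.881 to 1.23) of aged WT in the miR-146a knockout. Traf6 was at 8.76, 9.92, 7.44 and 8.09 CPM, and its ratios of 1.18 (0.825 to 1.68) and 1.33 (0.953 to 1.88) in the miR-146a knockout and the double knockout included 1. Smad4 held 11.1 and 11.2 CPM in the miR-146a knockout and the double knockout, against 12.8 CPM in aged WT and 14.9 CPM in young WT, and Prkce 23.3 and 27.9 CPM, against 25.6 and 31.4 CPM. Neither had a ratio to aged WT whose interval left out 1. At least 1.5-fold higher in the miR-146a knockout was 1 of 8 genes (Notch1), against 7.83% of all genes, and none was lower, against 4.2%. In the double knockout none was higher, against 7.14%, and 1 was lower (Irak2), against 3.83%. The median log2 ratio of the 8 genes was -0.04 for the miR-146a knockout and 0.05 for the double knockout, beside -0.04 and -0.01 for all genes.

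Myeloid cells gave lower levels of Relb and Irak2 in both knockout libraries, from populations that were themselves unlike. Relb was at 56.9 CPM in the miR-146a knockout and 46.9 CPM in the double knockout, against 129 CPM in aged WT and 147 CPM in young WT. The ratio to aged WT was 0.442 (0.340 to 0.578) for the miR-146a knockout and 0.365 (0.282 to 0.476) for the double knockout. Granulocytes, in which Relb is lowest, were 293 of 715 myeloid cells in the miR-146a knockout and 461 of 919 in the double knockout, against 16 of 191 in aged WT and 37 of 223 in young WT, and the median log2 ratio of all genes was -0.33 and -0.43 in the 2 comparisons. Without cells named Gran, Relb was at 93.6 CPM in the miR-146a knockout and 92.0 CPM in the double knockout, against 134 CPM in aged WT and 153 CPM in young WT, with ratios to aged WT of 0.696 (0.533 to 0.914) and 0.684 (0.525 to 0.896). Within DC/Mac cells the ratios were 0.501 (0.367 to 0.689) and 0.491 (0.359 to 0.676) in the miR-146a knockout and the double knockout, from 109 and 108 against 68 UMIs. DC/Mac itself is a mixture whose markers differed, as the C1q genes C1qa and C1qb were at 0 in the 44 aged WT cells and present in the other libraries. In Ly6c+ Mono cells both knockouts lay above both WT libraries, with Relb at 48.0 CPM in the miR-146a knockout and 53.4 CPM in the double knockout, against 41.2 CPM in aged WT and 25.1 CPM in young WT, from 6 to 32 UMIs a library, and the intervals of both ratios to aged WT included 1. In Ly6c- Mono cells the groups overlapped, with 45.8 CPM in the miR-146a knockout and 48.6 CPM in the double knockout, against 76.6 CPM in aged WT and 42.3 CPM in young WT.

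Irak2 in myeloid cells was at 11.8 CPM in the miR-146a knockout and 14.7 CPM in the double knockout, against 28.3 CPM in aged WT and 16.8 CPM in young WT. Its ratio to aged WT was 0.417 (0.234 to 0.765) in the miR-146a knockout, from 34 against 20 UMIs, and 0.519 (0.277 to 0.985) without cells named Gran. The young WT library lay closer to the knockouts than to aged WT, so the ratio leans on the 20 UMIs of aged WT. Notch2 was at 89.5, 76.5, 80.5 and 117 CPM in the miR-146a knockout, double knockout, aged WT and young WT, and without Gran cells at 123, 105, 82.1 and 106 CPM, with an interval of 1.11 to 2.06 for the ratio of the miR-146a knockout to aged WT. Notch1 was at 12.5, 18.1, 18.4 and 7.22 CPM, and without Gran cells at 4.96 CPM in the miR-146a knockout (8 UMIs) and 17.2 CPM in the double knockout (30 UMIs), against 17.9 CPM in aged WT (12 UMIs). Irak1 was at 31.2, 20.5, 35.3 and 37.3 CPM and Smad4 at 18.4, 15.2, 26.8 and 28.9 CPM, both with the knockout libraries below the WT libraries as found, and with ratios to aged WT that included 1 without Gran cells. Traf6 and Prkce rested on 6 and 5 UMIs in aged WT, and the intervals of their ratios to it included 1.

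Of the 8 genes, 2 were at least 1.5-fold lower in myeloid cells of the miR-146a knockout (Irak2 and Relb), against 30.6% of all genes, and none was higher, against 10.4%. In the double knockout 5 of the 7 measured were lower, against 39.2%, and none was higher, against 10.5%. Without cells named Gran the miR-146a knockout had 3 higher (Traf6, Notch2 and Prkce), against 15.7% of all genes, and 2 lower (Irak2 and Notch1), against 10.6%. Traf6 at 1.99 (0.745 to 6.68) and Prkce at 2.24 (0.851 to 7.45) rested on 5 UMIs each in aged WT, and both intervals included 1. The double knockout without Gran cells had 0 higher, against 15.4%, and 1 lower (Irak2, 0.539, 0.293 to 1.01), against 9.14%.

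**Figure D5:**
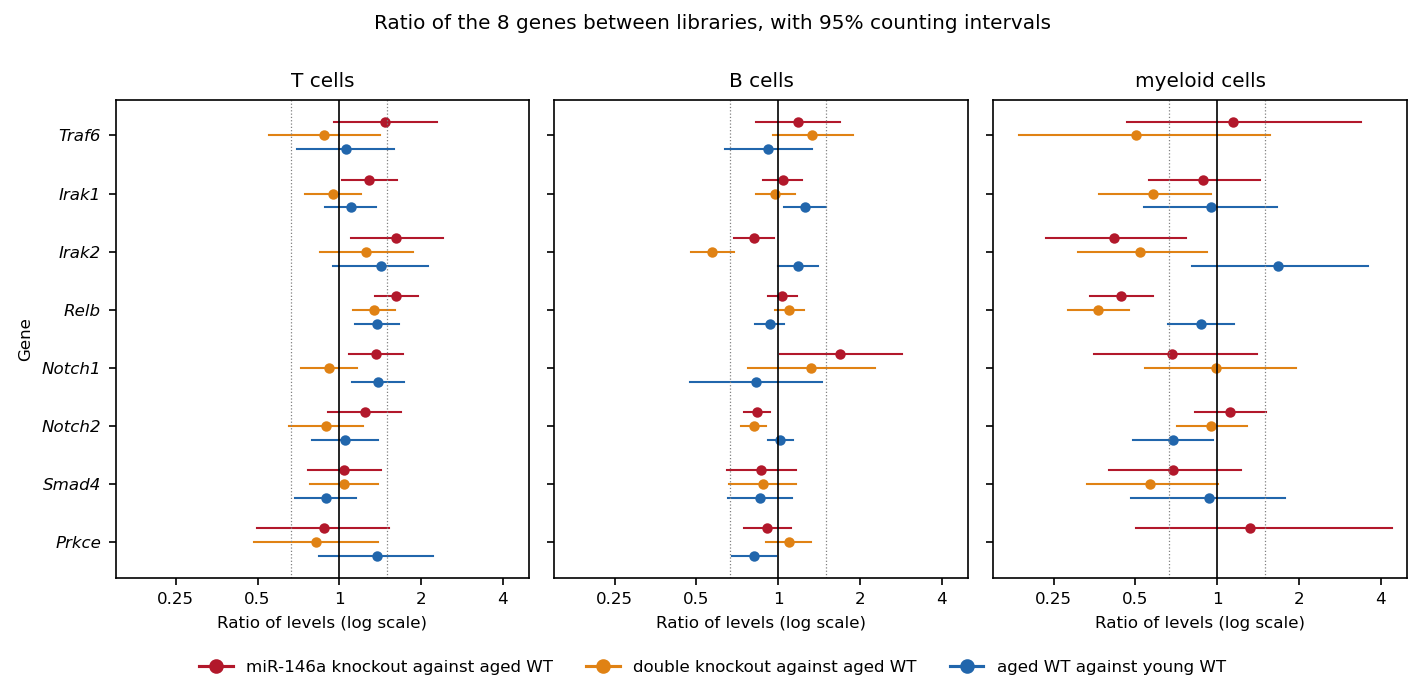
Ratio of the level of each gene (log axis) in T, B and myeloid cells, for the miR-146a knockout (red) and the double knockout (orange) against aged WT, and for aged against young WT (blue), where both libraries together held at least 20 UMIs. Lines through the points are 95% counting intervals, the solid line marks equal levels and the dotted lines 1.5-fold. For the miR-146a knockout against aged WT, the intervals of Relb, Irak2, Notch1 and Irak1 lie above 1 in T cells. In B cells those of Irak2 and Notch2 lie below 1 and that of Notch1 above 1. In myeloid cells those of Relb and Irak2 lie below 1.

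Both knockout libraries lay above both WT libraries in T cells for 2 of 8 genes (Irak2 and Relb), against 33.3% of all genes, and below for none, against 16.5%. In B cells 2 were above (Traf6 and Notch1), against 22.1%, and 3 below (Irak2, Notch2 and Smad4), against 27.4%. In myeloid cells none was above, against 11.8%, and 4 were below (Irak1, Irak2, Relb and Smad4), against 53.4%. These shares lay near the background, so nothing is read from them about the 8 genes.

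Removing miR-155 from T cells as well went with lower levels of several of the genes in T cells. Against the miR-146a knockout, the double knockout was at 0.598 (0.384 to 0.926) for Traf6, 0.673 (0.537 to 0.843) for Notch1, 0.721 (0.527 to 0.984) for Notch2, 0.737 (0.585 to 0.929) for Irak1 and 0.829 (0.703 to 0.977) for Relb. Smad4 at 0.999 (0.743 to 1.35) and Prkce at 0.939 (0.534 to 1.66) did not follow. Irak2 had a log2 ratio of -0.38, from 65 UMIs in the double knockout and 66 in the miR-146a knockout. Its Poisson intervals overlapped, at 9.94 to 16.4 CPM in the double knockout and 12.9 to 21.3 CPM in the miR-146a knockout. The median log2 ratio of the 8 was -0.41, beside -0.04 for all genes, and 1 of 8 (Traf6) passed 1.5-fold, against 11.6% of all genes in either direction. Since the miR-146a knockout is in both comparisons, a high value in that 1 library raises its ratio to aged WT and lowers this one. Under the T cell make-up of aged WT the log2 ratio of Relb was -0.05 in place of -0.27, and those of Traf6, Notch1 and Notch2 were -0.72, -0.44 and -0.52. In B cells, whose miR-155 was not targeted, none of the 8 passed 1.5-fold, against 6.32%, yet Irak2 was at 0.703 (0.578 to 0.854). In myeloid cells, whose miR-155 was not targeted either, 3 of 8 were lower by at least 1.5-fold (Traf6, Irak1 and Prkce), against 9.5% of all genes. Without cells named Gran, Irak1 was at 33.3 CPM in the double knockout against 42.1 CPM in the miR-146a knockout, which is less than 1.5-fold. Traf6 was then at 6.32 against 14.9 CPM and Prkce at 7.47 against 16.7 CPM.

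Age in WT mice went with higher Relb and Notch1 in T cells. In T cells Relb was 1.38-fold (1.14 to 1.66) and Notch1 1.39-fold (1.11 to 1.73) higher in aged than in young WT. Irak2 was at a ratio of 1.42 (0.944 to 2.12), with a log2 ratio of 0.14 in place of 0.50 when types were weighted as in aged WT. Traf6 (1.06), Irak1 (1.10), Notch2 (1.05), Smad4 (0.895) and Prkce (1.38) had age ratios whose intervals included 1. None of the 8 passed 1.5-fold, against 17.6% of all genes, and their median log2 ratio was 0.30 beside 0.11. The summed memory markers of T cells were 753 CPM in the miR-146a knockout, 564 CPM in the double knockout, 429 CPM in aged WT and 115 CPM in young WT, the same order of libraries as Relb and Irak2, and their part in those values was not tested beyond the imposed mix of types. In Mem Cd4 cells Relb was 1.56-fold (1.02 to 2.43) and Notch1 1.89-fold (1.07 to 3.47) higher with age, 2 of 7 measured genes against 18.2% of all genes. Irak2, at 12.0 CPM in aged WT and 20.8 CPM in young WT, and Notch2, at 18.1 CPM in aged WT and 28.6 CPM in young WT, were past 1.5-fold the other way, against 7.72%, with intervals that included 1. In B cells Irak1 was higher in aged WT, at 35.3 CPM against 28.2 CPM in young WT, Irak2 was at a ratio of 1.18 (1.00 to 1.40) and Prkce at 0.814 (0.674 to 0.981), with none of 8 past 1.5-fold against 7.92%. In myeloid cells 1 of 5 measured genes passed it (Irak2, 1.68-fold, 0.806 to 3.59), against 22% of all genes, and Notch2 was at 0.690 (0.488 to 0.967).

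The pathways around the 8 genes were read from 6 lists. Among 13 NF-kB subunits and inhibitors, all measured in T cells, 3 were at least 1.5-fold higher in the miR-146a knockout than in aged WT, against 10.2% of all genes, and none was lower, against 5.66%. Their median log2 ratio was 0.42, beside 0.06 for all genes. The highest was Nfkbia, which encodes the NF-kB inhibitor IkB-alpha, at 565 CPM in the miR-146a knockout against 338 CPM in aged WT (ratio 1.67, 1.56 to 1.78), and the lowest was the deubiquitinase gene Cyld at 1.02 (0.870 to 1.19). The others past 1.5-fold, named after their values were seen, were Nfkb2 at 1.67 (1.38 to 2.03) and Tnfaip3, which encodes the feedback inhibitor A20, at 1.54 (1.17 to 2.03). In the double knockout no member of that list passed 1.5-fold, and Nfkbia was at 1.38 (1.29 to 1.47). The list also differed between the WT libraries, which both hold miR-146a. In T cells of aged against young WT, 4 of the 13 were higher and none lower, against 17.6% of all genes in either direction. The median there was 0.34, beside 0.11 for all genes. Memory markers of T cells were higher in both comparisons, and their part in this list was not tested. Of 14 measured genes of IL-1 receptor and Toll-like receptor signalling, none passed 1.5-fold in T cells of either knockout, with medians of 0.06 and -0.08 in the miR-146a knockout and the double knockout. Their extremes in the miR-146a knockout were the kinase gene Irak4 at 1.32 (1.01 to 1.73) and Tollip, an inhibitor of these receptors, at 0.743 (0.499 to 1.10).

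The other lists are read against the same 10.2% higher and 5.66% lower over all genes. Among Notch pathway genes in T cells of the miR-146a knockout, 1 of 8 measured was lower, Dtx1, a Notch-induced ubiquitin ligase gene, at 48.6 CPM against 85.3 CPM in aged WT (ratio 0.571, 0.477 to 0.680), while Notch1 itself was higher. The TGF-beta and SMAD list had 1 of 11 higher, the repressor gene Tgif1 at 1.54 (1.18 to 2.02), and Smad2 was lowest at 0.762 (0.580 to 0.998). No protein kinase C gene of 7 passed 1.5-fold, between Prkca at 1.43 (1.28 to 1.60) and Prkcq, the isoform at the T cell synapse, at 0.850 (0.757 to 0.954). Among other reported targets, of 5 measured 1 was at least 1.5-fold higher, a gene not reported here, and 1 was lower. The lower one was Numb, an inhibitor of Notch receptors, at 0.608 (0.335 to 1.07), an interval that included 1. In B cells of the miR-146a knockout no member of these lists was 1.5-fold higher, against 7.83% of all genes, with 0 of 15, 0 of 13, 0 of 12, 0 of 11 and 0 of 8 higher in the IL-1 and Toll-like receptor, NF-kB, Notch, TGF-beta and protein kinase C lists. The lower ones, against 4.2% of all genes, were 1 NF-kB gene, the inhibitor gene Nfkbid at 0.635 (0.538 to 0.748), and 2 Notch pathway genes, of which the coactivator gene Maml3 was lowest at 0.564 (0.348 to 0.897). In myeloid cells 6 of 13 NF-kB genes were lower in the miR-146a knockout, against 30.6% of all genes, and none was higher, against 10.4%, with Rel lowest at 0.483 (0.353 to 0.667) and a median of -0.58, where the median of all genes was -0.33. Without cells named Gran the share of all genes lower was 10.6%. The list was not recomputed without them, and their part in its values was not tested.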

How the data were processed

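The authors deposited raw UMI counts for 31053 genes in 4 libraries, made with Cell Ranger 3.0.0 on mm10 per the submitters' processing notes, and, in a separate deposited table, a cell type name per barcode. The sources used here do not give how the names were assigned, nor the annotation and strand used in counting. Counts were summed over the cells of a type or class and divided by the UMIs of that type or class (CPM). Sums have exact Poisson intervals and ratios exact conditional binomial intervals at 95%, tested on simulated data. A gene was measured in a comparison with at least 20 UMIs over both libraries and counted as higher or lower from 1.5-fold; no test was run, with 1 library per group. Doublets were not called, and NK, T/B dbl and unnamed barcodes stayed outside the classes. Seed sites were searched in GENCODE M21 transcripts. All 8 genes are named, with the highest and lowest member of each list and the 3 genes most alike by Pearson's r of log2(CPM + 1). Some genes that this rule names, and some marker lists, are not reported here. Members and lists were chosen with earlier results of these data known. Alternatives were the mean over cells, the aged WT mix of types, median-ratio scaling, a denominator without immunoglobulin, haemoglobin, mitochondrial and ribosomal genes, cells with at least 1000 UMIs, a fold limit of 0.32 in log2, other UMI minimums, the longest 3′ UTR and, added after seeing the data, myeloid cells without Gran. Analyses used Python 3.11.15, numpy 2.4.6, scipy 1.17.1 and pandas 2.3.3.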

Additional observations from a re-analysis of the deposited data

Results flagged for a closer look

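Irak2 and Relb moved in opposite directions in different classes of the same libraries. The ratio of the miR-146a knockout to aged WT for Irak2 was 1.62 in T cells, against 0.815 in B and 0.417 in myeloid cells. For Relb the same ratio was 1.62 in T cells and 0.442 in myeloid cells, and that of the double knockout to aged WT was 1.34 in T cells and 0.365 in myeloid cells. Each of these intervals left out 1, but the difference between classes was not tested, and the myeloid values move with the share of cells named Gran.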

How the results depend on the processing

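Of the counts and medians of the 8 genes recomputed under the alternatives, 156 stayed within the limits set for no change and 16 moved. In T cells the number of genes at least 1.5-fold higher in the miR-146a knockout was 1 in place of 2 with the aged WT mix of types, and 5 at a fold limit of 0.32 in log2, where the double knockout had 2 in place of 0. In B cells of the double knockout 2 genes in place of 0 were higher by the mean over cells and at that lower limit. Myeloid counts moved most. The number higher in the miR-146a knockout was 0 as found, 2 by the mean over cells, 3 with the aged WT mix of types, 1 with median-ratio scaling, 3 without cells named Gran and 1 at the lower limit, and the number lower was 2 as found and 4 both without immunoglobulin, haemoglobin, mitochondrial and ribosomal genes in the denominator and at the lower limit. In the double knockout 5 were lower as found, 2 with the aged WT mix of types, 1 with median-ratio scaling and 1 without Gran cells. By the mean over cells 1 gene in place of 0 lay above both WT libraries in both knockouts in myeloid cells. The median log2 ratio of the 8 genes in myeloid cells of the miR-146a knockout changed sign, from -0.36 as found to 0.12 without Gran cells. Over the alternatives the log2 ratio of the miR-146a knockout to aged WT in T cells ran from 0.35 to 0.75 for Relb, from 0.59 to 0.70 for Irak2, from 0.26 to 0.46 for Notch1, from 0.25 to 0.37 for Irak1 and from 0.45 to 0.58 for Traf6. The cause was not tested for changes other than those of the mix of types and the Gran cells, which follow from fewer or reweighted cells. No paired analysis was possible because each group has 1 library. Depth was low for Traf6 and Prkce in T cells of the miR-146a knockout, with 51 and 25 UMIs, and for Notch1 in B cells of that library, with 41. It was lower still in myeloid cells of aged WT, with 6 UMIs of Traf6 and 5 of Prkce.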

Other observations

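Barcodes to which the authors gave no cell type name, 870 in the miR-146a knockout, 703 in the double knockout, 1056 in aged WT and 805 in young WT, also held the 8 genes. Irak2 was at 10.4 CPM in the miR-146a knockout and 11.6 CPM in the double knockout, against 20.7 CPM in aged WT and 22.4 CPM in young WT. Prkce stood at 10.2 and 11.6 CPM in the miR-146a knockout and the double knockout, against 23.6 CPM in aged WT and 23.9 CPM in young WT. Notch2 was at 38.8 and 33.4 CPM in the miR-146a knockout and the double knockout, against 57.5 CPM in aged WT and 79.3 CPM in young WT. For these 3 genes both knockout libraries lay below both WT libraries, in a mixture of cell types that was not resolved here. Irak1 lay likewise, at 33.2, 31.7, 41.1 and 50.5 CPM in the miR-146a knockout, double knockout, aged WT and young WT. Relb did so too, at 40.5, 30.3, 43.6 and 43.5 CPM in the same order of libraries, unlike its order in T cells. The share over all genes was not computed for these barcodes, so nothing is read from this about the 8 genes.

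Another reported target, Cxcr4, the receptor that holds lymphocytes in the bone marrow, was among the lowest genes of its list in the double knockout. Its level was 7.93 CPM in T cells of the double knockout against 18.9 CPM in those of aged WT (ratio 0.420, 0.281 to 0.619), and 7.80 CPM in B cells of the double knockout against 18.4 CPM in those of aged WT (ratio 0.425, 0.314 to 0.570). At least 1.5-fold lower were 1 of 5 measured genes of the list in T cells, against 4.62% of all genes, and 1 of 4 in B cells, against 3.83%. In T cells of the miR-146a knockout the ratio of Cxcr4 to aged WT was 0.726 (0.507 to 1.03), an interval that included 1. Hes1, a Notch target gene, was the lowest Notch pathway gene in myeloid cells of the double knockout, at 33.1 CPM against 121 CPM in aged WT. In that comparison 39.2% of all genes were at least 1.5-fold lower. Cells named Gran were 461 of 919 myeloid cells in the double knockout and 16 of 191 in aged WT, and their part in the Hes1 value was not tested.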
